A study of Mus musculus with 2 samples.

Results

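The mitochondrial respiratory chain and the ATP synthase were followed through their transcripts in single cells and droplets from mouse plantaris muscle. Every gene whose symbol begins with Nduf, Sdha to Sdhd, Uqcr, Cox4 to Cox8 or Atp5 was taken, together with the 13 protein-coding genes of mitochondrial DNA, which carry the prefix mt-. This rule used symbols and no measured value, and it gave 111 of the 32285 genes in the matrices, 98 nuclear and 13 mitochondrial. The nuclear genes were 37 subunits and 8 assembly factors of complex I, 4 subunits and 4 assembly factors of complex II, 8 subunits of complex III, 19 subunits of complex IV, the supercomplex factor Cox7a2l and 17 subunits of the ATP synthase (complex V). The mitochondrial genes encode 7 subunits of complex I, 1 of complex III, 3 of complex IV and 2 of complex V.

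The muscle stem cells (MuSCs) came from Pax7rtTA; TRE-H2B-GFP mice, in which Pax7-expressing cells drive a green histone label while doxycycline is given. Both groups were 26 weeks old and had received 2.0 mg/ml doxycycline with 2% sucrose in the drinking water for 2 weeks. The sham group had a skin incision and probing of the plantaris tendon only, and the MOV group had 5 days of mechanical overload after removal of part of the gastrocnemius and soleus. Several mice were used per group, but a single 10x Genomics 3′ library was made from each, which does not separate the animals, so no value below has a replicate check, no test was run and no p-value is given. Intervals are at 95% and cover counting error only.

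The respiratory chain passes electrons from NADH through complex I, or from succinate through complex II, to ubiquinone, then through complex III and cytochrome c to oxygen at complex IV. The proton gradient built on the way drives ATP synthesis at complex V. Complex II is encoded wholly in the nucleus, whereas the other complexes are assembled from nuclear and mitochondrial products. The complex IV subunits 6a, 7a and 8 have a heart and muscle isoform (Cox6a2, Cox7a1, Cox8b) beside a ubiquitous one (Cox6a1, Cox7a2, Cox8a), and oxidative fibres are known for a higher mitochondrial content than glycolytic ones. In 3′ libraries each captured transcript is counted once as a unique molecular identifier (UMI), so levels do not depend on transcript length.

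The sham library held 1100 barcodes and 7302661 UMIs with a median of 4116.5 UMIs, and the deeper MOV library held 3854 barcodes and 88498487 UMIs with a median of 16836. The 2 libraries shared 44 barcodes. Clusters were formed without any of the 111 genes and without a limit on mitochondrial RNA, and were named from fixed marker lists. Per the study's methods, cells positive for VCAM and negative for CD31, CD45 and SCA1 were sorted before loading. Classes of other lineages are therefore what remained after the sort and do not sample the whole muscle. Although the label for both libraries is muscle stem cells, 568 sham droplets carried the markers of muscle fibres against 102 quiescence-like MuSCs, and 271 sham and 875 MOV droplets stayed unnamed. The MOV library held 259 quiescence-like MuSCs, 563 cycling MuSCs, 50 early and 129 late myocytes and 37 fibre-like droplets. Pax7 stood at 158 CPM in the sham and 128 CPM in the MOV quiescence-like cells and at 2.22 CPM in the sham fibre-like droplets. The myogenic gene Myod1 stood at 960 CPM in sham and 147 CPM in MOV quiescence-like cells. It was at 225 CPM in cycling cells, 238 CPM in early and 329 CPM in late myocytes. The name quiescence-like thus rests on the marker list and does not show that these cells were resting. Myog, which marks myocytes, stood at 2645 CPM in early and 2614 CPM in late myocytes and at 64.7 CPM in cycling cells, and Mki67, a marker of proliferation, at 266 CPM in cycling cells and 5.50 CPM in MOV quiescence-like cells.

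Nuclear respiratory chain transcripts were far more abundant in fibre-like droplets than in any MuSC class. They made up 11.6% of the UMIs outside the mt- genes in sham fibre-like droplets (interval 11.6 to 11.7%) and 7.77% in MOV fibre-like droplets (7.66 to 7.88%). In quiescence-like MuSCs the share was 1.83% in sham (1.80 to 1.86%) and 2.13% in MOV (2.11 to 2.15%). Among the MOV myogenic classes it was 2.62% in immediate-early MuSCs, 2.84% in interferon-responsive, 2.89% in matrix-expressing, 3.08% in activated and 3.67% in cycling MuSCs, 4.06% in early and 4.49% in late myocytes. None of these intervals touched that of the quiescence-like class. The nucleated classes of other lineages lay between 1.51% in sham tenocytes and 2.72% in MOV mural cells, apart from 4.67% in sham mural cells.

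**Figure D1:**
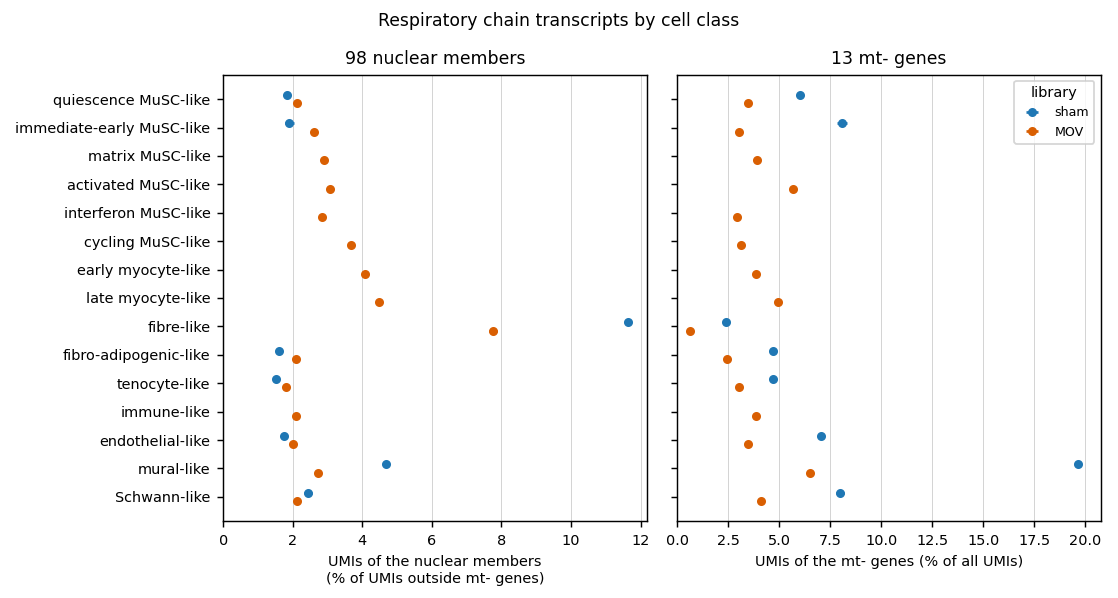
Share of UMIs from the 98 nuclear genes (left, percent of UMIs outside the mt- genes) and from the 13 mt- genes (right, percent of all UMIs) in each named class of the sham (blue) and MOV (orange) libraries; bars are exact 95% intervals for counting error and are mostly smaller than the points. The fibre-like points are the farthest right on the left panel, at 11.6% and 7.77%, while on the right panel they stand at 2.39% and 0.616%, below the quiescence-like cells of their own library.

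Comparing sham fibre-like droplets with sham quiescence-like MuSCs asks how the transcripts of fully formed muscle differ from those of stem cells with quiescence markers. All but a few nuclear genes were higher in the fibre-like droplets. On the scale of CPM of UMIs outside the mt- genes, 87 of the 93 nuclear genes with at least 20 UMIs were at least 2-fold higher (93.5%) and 2 were at least 2-fold lower (2.15%), against 29.0% and 45.1% of all 7567 genes. The median log2 ratio was 2.73 for the nuclear genes and -0.63 for all genes. All 37 complex I subunits, all 8 complex III subunits and all 17 complex V subunits were at least 2-fold higher, with medians of 2.83, 2.70 and 2.64. Complex II had 3 of 4 subunits at least 2-fold higher (median 3.00), and complex IV had 12 of its 14 measured subunits higher and 2 lower (median 2.64). The 8 complex I assembly factors had a median of 2.37, with 6 at least 2-fold higher.

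Core subunits differed widely in how far they stood apart. Sdhb, the iron-sulfur subunit of complex II, was at 57.1 CPM in quiescence-like cells and 888 CPM in fibre-like droplets, a log2 ratio of 3.96 (3.53 to 4.43). Sdha, the flavoprotein that pairs with it, was at 81.0 and 149 CPM, a log2 ratio of 0.88 (0.49 to 1.28). The Sdhb interval lay above that of its partner. Cox5a, a nuclear subunit of complex IV, was at 251 and 3047 CPM (log2 ratio 3.60, 3.39 to 3.82). Uqcrfs1, the Rieske iron-sulfur protein of complex III, had a log2 ratio of 3.10 (2.77 to 3.46), and Uqcrc1, a core protein of the same complex, one of 2.74 (2.32 to 3.18). Ndufv1, which binds NADH in complex I, had a log2 ratio of 2.20 (1.80 to 2.63), Ndufs1, its largest iron-sulfur subunit, 1.67 (1.09 to 2.30), and Atp5b, the catalytic beta subunit of the ATP synthase, 1.55 (1.40 to 1.70). At the low end the complex I assembly factor Ndufaf4 was at 112 and 119 CPM, a log2 ratio of 0.09 whose interval (-0.25 to 0.45) held 0. The nuclear genes Cox4i2, Cox6b2, Cox7b2, Cox8c and Ndufa4l2, had too few UMIs for a ratio.

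In the MOV library the nuclear genes were again mostly higher in fibre-like droplets. There, 76 of 93 nuclear genes (81.7%) were at least 2-fold higher in the 37 fibre-like droplets than in the 259 quiescence-like MuSCs and 2 were at least 2-fold lower, against 14.6% and 39.8% of 7955 genes. The median log2 ratio was 1.91, against -0.59 over all genes. In these ratios a count of 0 was set to 3 counts, which in the shallow fibre-like group can score an undetected gene as higher. Cox4i2, with 0 UMIs in fibre-like droplets and 22 in quiescence-like cells, was scored at 0.91. The shares and median of all genes can include such genes, and the part of this floor was not tested. Sdhb was at 104 and 639 CPM (log2 ratio 2.61, 2.31 to 2.91) and Cox5a at 325 and 2129 CPM (2.71, 2.55 to 2.88). Cox7a2l was at 401 and 369 CPM with a log2 ratio of -0.12, and its interval (-0.47 to 0.21) held 0. With myogenic cells clustered at resolution 1, which left 20 MOV fibre-like droplets, 77 of 93 nuclear genes and 5605 of 7836 of all genes were scored at least 2-fold higher, and the nuclear median of 1.96 lay below the 2.15 of all genes. These 20 droplets were shallow, at 0.0403 of the median depth of the library. The same floor of 3 counts applied, so genes with 0 UMIs in them can be among those scored higher. The part of the floor in these values was not tested. When the scale was set by the TMM or the median-of-ratios method instead, the median of all genes in the sham comparison moved by 1.00 or 1.07, 91 nuclear genes were at least 2-fold higher, and the split of all genes became 41.6% higher and 31.6% lower under TMM.

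The genes of mitochondrial DNA stood the other way. They gave 6.00% of all UMIs in sham quiescence-like MuSCs (5.95 to 6.05%) and 2.39% in sham fibre-like droplets (2.37 to 2.40%), a log2 ratio of -1.33 (-1.35 to -1.31). In MOV the shares were 3.45% (3.43 to 3.47%) and 0.616% (0.583 to 0.650%), a log2 ratio of -2.48 (-2.56 to -2.41). All 13 genes had an interval below 0 in both libraries, with log2 ratios from -2.69 (mt-Co1) to -0.95 (mt-Nd2) in sham and from -3.36 (mt-Co1) to -1.62 (mt-Atp8) in MOV. As a result there were 3.48 mt- UMIs for each nuclear respiratory chain UMI in sham quiescence-like cells and 0.210 in sham fibre-like droplets, and 1.68 and 0.0798 in MOV.

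The mitochondrial share of fibre-like droplets depended on which droplets were counted. It was 9.80% in the 102 sham droplets under 1000 UMIs, 7.29% in the 97 from 1000 to 2000, 3.89% in the 157 from 2000 to 5000 and 1.59% in the 212 with 5000 or more, while the nuclear share varied only between 10.1% and 11.8% over the same steps. A further 221 sham droplets that stayed unnamed were 98.6% mitochondrial RNA. Where droplets were named singly, the sham fibre class held 725 droplets with a mitochondrial share of 18.04%, and where the libraries were merged without integration it held 779 with a share of 22.1%, both above the quiescence-like value of 6.00%. The fibre class of the merged libraries took in a cluster of 208 sham droplets with a median of 99.3% mt- UMIs. The lower mitochondrial share of fibre-like droplets was thus not seen under these 2 alternatives. Nor was it seen in the sham fibre-like droplets under 2000 UMIs, whose 9.80% and 7.29% lay above the quiescence-like 6.00%. The quiescence-like cells had a median of 7647.5 UMIs, and the 2 classes were not compared at equal depth.

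**Figure D2:**
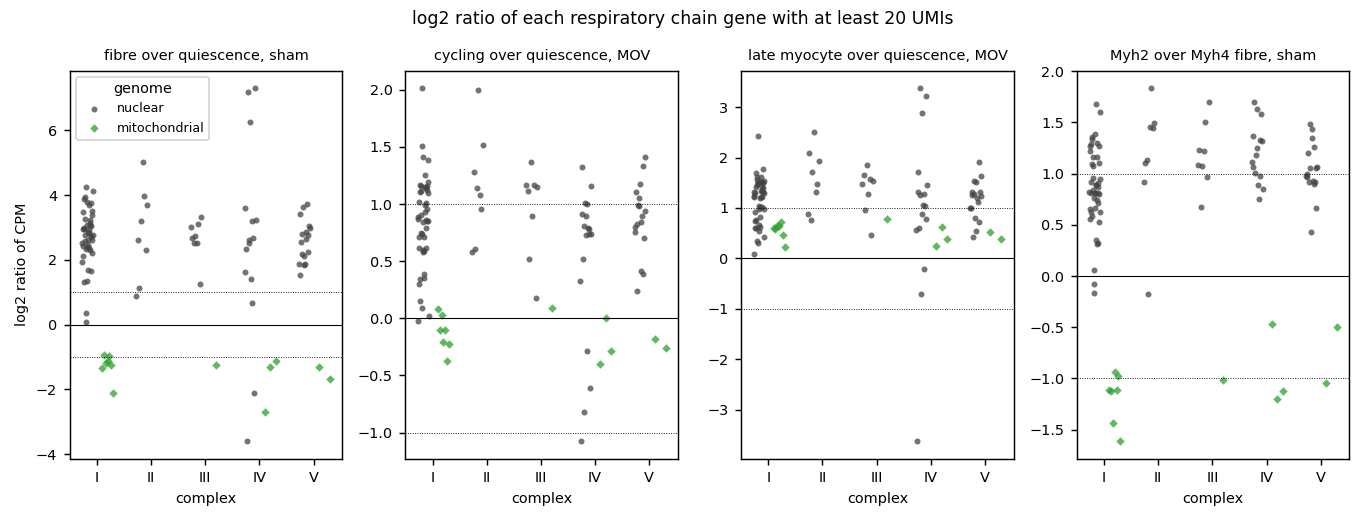
log2 ratio of CPM for each gene with at least 20 UMIs over both groups, by complex, in 4 comparisons; grey circles are nuclear and green diamonds mitochondrial genes, dotted lines mark 2-fold, and the vertical scales differ between panels. In sham fibre-like droplets against quiescence-like MuSCs the 13 mt- genes lie between -2.69 and -0.95 while the nuclear genes have a median of 2.73.

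The only nuclear genes at least 2-fold lower in fibre-like droplets were 2 ubiquitous isoforms of complex IV, and the 3 highest were their muscle counterparts. Cox6a1 was at 263 CPM in sham quiescence-like MuSCs and 21.9 CPM in sham fibre-like droplets (log2 ratio -3.59, -4.01 to -3.19), and Cox8a was at 850 and 195 CPM (-2.12, -2.28 to -1.96). Cox6a2 was at 41.2 CPM and 5999 CPM (7.19, 6.68 to 7.75), which made it the most abundant nuclear respiratory chain transcript of the sham fibre-like droplets. Cox8b was at 21.2 and 3352 CPM (7.30, 6.60 to 8.11) and Cox7a1 at 15.9 and 1227 CPM (6.27, 5.46 to 7.22). The third ubiquitous isoform stood the other way, as Cox7a2 was at 495 and 1314 CPM and was thus higher in the fibre-like droplets (1.41, 1.26 to 1.57).

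Within each pair the switch was therefore unequal. In sham fibre-like droplets Cox6a2 gave 99.6% of the Cox6a UMIs and Cox8b 94.5% of the Cox8 UMIs, but Cox7a1 only 48.3% of the Cox7a UMIs (47.2 to 49.4%). In MOV fibre-like droplets the shares were 97.9% (96.5 to 98.9%), 67.4% (61.4 to 73.0%) and 25.7% (21.2 to 30.7%). The Cox7a and Cox8 intervals of the 2 libraries lay apart, with 37 droplets behind the MOV values. The 3 muscle isoforms together gave 87.4% of the UMIs of the 6 genes in sham fibre-like droplets and 71.2% in MOV.

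MuSCs held few muscle isoform UMIs. Their joint share was 4.65% in sham and 1.03% in MOV quiescence-like cells, 0.551% in cycling cells and 0.925% in early myocytes. RNA of the 20 fibre markers was present in the same cells, at 0.178% of UMIs outside the mt- genes in sham and 0.0585% in MOV quiescence-like cells against 19.0% and 13.8% in fibre-like droplets. For every 1000 fibre marker UMIs there were 23.2 Cox6a2 UMIs in sham quiescence-like cells (15.7 to 33.0) and 18.2 in MOV quiescence-like cells (12.3 to 25.9). Fibre-like droplets had 31.6 in sham and 20.9 in MOV. MOV fibro-adipogenic cells, which are not myogenic, had 14.98. The other MOV classes outside the myogenic lineage lay between 7.63 in mural cells (0.192 to 43.3) and 62.5 in endothelial cells (22.4 to 141). After thinning to 2000 UMIs, a Cox6a2 UMI was found in 10.2% of sham quiescence-like cells (5.00 to 17.97%), 10.0% of sham fibro-adipogenic cells (2.11 to 26.5%), 3.15% of MOV quiescence-like cells, 1.43% of cycling cells and 0.611% of MOV fibro-adipogenic cells. The median depths were 7647.5, 10419, 11306, 38257 and 34695 UMIs. The intervals of the sham quiescence-like and sham fibro-adipogenic shares overlapped, and the source of these UMIs was not tested.

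Late myocytes, which already carry sarcomere transcripts, showed 1 of the 3 isoforms more than the others. Cox6a2 gave 22.8% of the Cox6a UMIs (21.1 to 24.5%) there, Cox7a1 4.30% of the Cox7a UMIs and Cox8b 1.17% of the Cox8 UMIs. Thinned to 2000 UMIs, 15.9% of late myocytes had a Cox6a2 UMI (9.54 to 24.2%), above the interval of MOV fibro-adipogenic cells (0.167 to 1.56%), while 4.67% had one of Cox7a1 and 2.80% one of Cox8b. Fibre marker RNA was at 1.12% in these cells, with 9.85 Cox6a2 UMIs for every 1000 fibre marker UMIs (9.03 to 10.7), and its part in the Cox6a2 share was not tested.

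**Figure D3:**
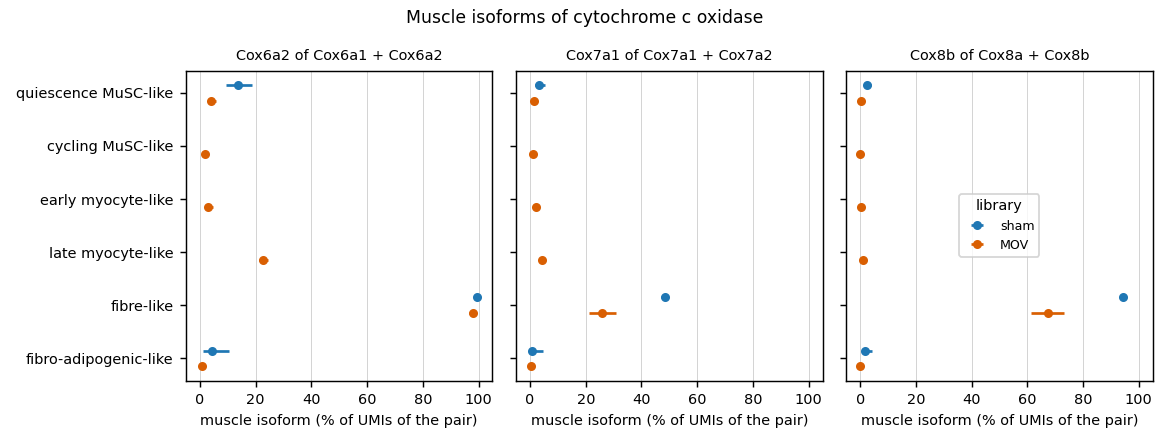
Muscle isoform as a percent of the UMIs of its pair for Cox6a, Cox7a and Cox8 in 6 classes of the sham (blue) and MOV (orange) libraries, with exact 95% intervals for counting error. Fibre-like droplets lie near 100% for Cox6a2, at 48.3% and 25.7% for Cox7a1 and at 94.5% and 67.4% for Cox8b, and late myocytes stand at 22.8% for Cox6a2 alone.

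To show what lies before the genes of this switch, the 250 bases upstream of the RefSeq start (GRCm38.p6) are given for 2 muscle isoforms and their ubiquitous partners, together with the ubiquitous gene Cox6a1, whose partner Cox6a2 had no entry. Capitals mark a match on either strand to the NRF1 core GCGCATGC, the oestrogen-related receptor half-site AAGGTCA, the E-box CAGCTG, the GC box GGGCGG, the ETS core CCGGAA or the MEF2 AT core TATTTA.
Cox7a1, muscle, chr7:30183921-30184170, plus strand: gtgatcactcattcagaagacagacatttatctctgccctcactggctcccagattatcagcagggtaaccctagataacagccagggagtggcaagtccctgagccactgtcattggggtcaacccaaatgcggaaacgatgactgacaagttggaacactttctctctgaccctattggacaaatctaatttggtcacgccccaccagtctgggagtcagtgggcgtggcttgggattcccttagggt
Cox7a2, ubiquitous, chr9:79759854-79760103, minus strand: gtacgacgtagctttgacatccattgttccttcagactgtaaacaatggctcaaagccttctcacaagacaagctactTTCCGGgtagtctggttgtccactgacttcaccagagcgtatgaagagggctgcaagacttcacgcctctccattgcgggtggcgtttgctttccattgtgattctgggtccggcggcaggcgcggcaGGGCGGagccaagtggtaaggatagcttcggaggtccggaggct
Cox8b, muscle, chr7:140900447-140900696, minus strand: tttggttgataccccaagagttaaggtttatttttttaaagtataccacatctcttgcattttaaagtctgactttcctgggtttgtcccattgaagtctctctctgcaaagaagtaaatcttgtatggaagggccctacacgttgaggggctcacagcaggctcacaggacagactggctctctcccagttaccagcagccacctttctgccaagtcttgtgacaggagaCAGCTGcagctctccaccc
Cox8a, ubiquitous, chr19:7217617-7217866, minus strand: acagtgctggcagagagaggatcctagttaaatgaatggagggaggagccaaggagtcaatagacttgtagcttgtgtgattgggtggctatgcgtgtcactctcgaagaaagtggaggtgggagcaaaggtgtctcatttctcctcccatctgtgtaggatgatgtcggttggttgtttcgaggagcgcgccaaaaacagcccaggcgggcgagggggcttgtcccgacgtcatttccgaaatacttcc
Cox6a1, ubiquitous, chr5:115348959-115349208, minus strand: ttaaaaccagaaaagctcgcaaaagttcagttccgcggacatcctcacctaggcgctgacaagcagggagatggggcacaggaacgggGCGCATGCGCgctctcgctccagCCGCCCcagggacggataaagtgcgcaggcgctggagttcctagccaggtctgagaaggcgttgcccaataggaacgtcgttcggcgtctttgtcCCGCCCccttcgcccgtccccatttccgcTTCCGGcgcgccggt

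The Cox8b window held an E-box beginning 19 bases before the start, and the windows of the muscle gene Cox7a1 and the ubiquitous gene Cox8a held none of the 6 motifs. The Cox6a1 window held 2 overlapping NRF1 core matches, which begin 162 and 160 bases before the start on opposite strands, 2 GC boxes and an ETS core. The Cox7a2 window held an ETS core and a GC box. A RefSeq promoter was matched for 79 of the 98 nuclear genes. The NRF1 core was in 11.4% of these windows and in 2.32% of all 27025 promoters of the same length, the ETS core in 29.1% and 12.2%, the GC box in 43.0% and 32.9%, and the receptor half-site in 6.33% and 4.05%. The E-box was in 7.59% of the windows and 12.8% of all promoters, and the MEF2 AT core in 5.06% and 13.04%. These matches describe letters in the windows and not bound sites.

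Within the MOV library, the comparison of activated and differentiating classes with quiescence-like MuSCs asks how far the respiratory chain genes move before a fibre is formed. Cycling MuSCs had higher levels of most nuclear genes, by less than the fibre-like droplets did. Of 96 nuclear genes, 35 were at least 2-fold higher (36.5%) and 1 at least 2-fold lower (1.04%), against 21.2% and 11.6% of 12217 genes, and the median log2 ratio was 0.89 against 0.15. With the libraries merged without integration the count was 19 of 96, against 2169 of 11600 genes, and the medians were 0.79 and 0.18. Complex III had the highest median of the complexes with more than 4 subunits, at 1.13 with 5 of 8 subunits at least 2-fold higher. Complex V followed at 0.89 (5 of 17), complex I at 0.87 (14 of 37) and complex IV at 0.78 (3 of 17, and 1 lower). The 3 highest genes by the interval bound were Sdhaf4, an assembly factor of complex II (9.96 and 39.8 CPM, log2 ratio 2.00, 1.47 to 2.58), Atp5o, the stalk subunit of the ATP synthase that confers oligomycin sensitivity (275 and 732 CPM, 1.41, 1.31 to 1.52), and Sdhd, a membrane anchor of complex II (56.3 and 161 CPM, 1.52, 1.29 to 1.75). The 3 lowest were Cox4i2, a lung and hypoxia-associated isoform of subunit 4 (7.56 and 3.59 CPM, -1.07, -1.76 to -0.33), Cox6a2 (10.6 and 6.04 CPM, -0.82, -1.38 to -0.21) and Cox7a2l (401 and 329 CPM, -0.29, -0.38 to -0.20). The 13 mt- genes gave 3.10% of UMIs in cycling cells (3.09 to 3.10%) and 3.45% in quiescence-like cells, and their log2 ratios lay between -0.40 (mt-Co1) and 0.09 (mt-Cytb).

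In early myocytes 51 of 94 nuclear genes were at least 2-fold higher than in quiescence-like MuSCs (54.3%) and 1 was lower. The shares of all 8865 genes were 14.1% and 13.8%, and the median log2 ratio was 1.05 for the nuclear genes against 0.06. The number at least 2-fold higher was 33 under either other scaling. Of all genes, 11.2% were higher and 16.1% lower under TMM, and 11.3% and 16.0% under the median of ratios. The median of all genes moved by -0.14 under TMM and -0.13 under the median of ratios. Sdhd was at 56.3 CPM in quiescence-like cells and 190 CPM in early myocytes (1.75, 1.47 to 2.04), Uqcr11, a small subunit of complex III, at 288 and 827 CPM (1.52, 1.40 to 1.65) and Atp5o at 275 and 760 CPM (1.46, 1.33 to 1.60). Cox4i2 had 22 UMIs in quiescence-like cells and 1 UMI in early myocytes (-3.50, -8.86 to -0.87), Ndufaf4 a log2 ratio of -0.16 (-0.53 to 0.20) and Cox7a2l one of 0.17 (0.03 to 0.31). The mt- share was 3.87% (3.84 to 3.90%).

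Late myocytes had the highest nuclear levels of the mononucleated myogenic classes. Here 64 of 95 nuclear genes were at least 2-fold higher than in quiescence-like MuSCs (67.4%) and 1 was lower, against 23.4% and 18.1% of 10365 genes, with a median of 1.27 against 0.09. By the interval bound the highest were the muscle isoforms Cox6a2 (10.6 and 110 CPM, 3.37, 2.85 to 3.95), Cox8b (2.40 and 22.5 CPM, 3.23, 2.13 to 4.57) and Cox7a1 (4.81 and 35.4 CPM, 2.88, 2.09 to 3.78). The lowest were Cox4i2, with 22 and 3 UMIs (-3.62, -6.01 to -1.89), Cox7a2l (401 and 347 CPM, -0.21, -0.32 to -0.10) and Cox6b2, a testis-associated isoform of subunit 6b (15.5 and 9.41 CPM, -0.72, -1.34 to -0.09). Uqcrc1 was at 71.8 CPM in quiescence-like cells and 260 CPM in late myocytes (1.85, 1.64 to 2.07) and Cox5a at 325 and 1069 CPM (1.72, 1.62 to 1.82). Unlike in fibre-like droplets, the ubiquitous isoforms Cox6a1 and Cox8a were also higher, with log2 ratios of 0.60 (0.48 to 0.73) and 0.79 (0.73 to 0.85). Cox7a2, which was higher in fibre-like droplets too, had a log2 ratio of 1.07 (0.97 to 1.16). The mt- share was 4.95% (4.93 to 4.97%), and 12 of the 13 mt- genes had an interval above 0, from 0.25 for mt-Co1 to 0.79 for mt-Cytb, with mt-Nd6 the exception at 0.23 (-0.07 to 0.54).

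Over these MOV groups, 48 of the 96 nuclear genes with at least 20 UMIs increased at each step in the order quiescence-like, cycling, early myocyte, late myocyte and fibre-like. Fibre-like droplets were the highest for 77 of them and quiescence-like cells the lowest for 86. These 3 counts were not taken over all genes, so the order is not shown to be particular to the respiratory chain genes. The classes differed in depth, with medians of 11306 UMIs in quiescence-like, 38257 in cycling, 29404 in early and 36784 in late myocytes and 1534 in fibre-like droplets, and the part of depth was not tested. The late myocyte class joined a cluster of 46 cells with a median of 2084 UMIs and a mt- share of 20.5% to one of 83 cells with a median of 57267 UMIs and a share of 4.09%. Without the shallow cluster 65 nuclear genes were at least 2-fold higher, against 64 with it. The share of all genes without that cluster is not given here. The activated class was likewise made of a cluster of 232 cells with a nuclear share of 3.31% and a mt- share of 3.26% and a shallower one of 130 cells with 1.96% and 15.7%.

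The comparison of quiescence-like MuSCs between the libraries asks how cells with quiescence markers differed between sham and MOV. Their Myod1 levels were unlike, at 960 CPM in sham and 147 CPM in MOV. The nuclear genes showed little difference. Of 93, 6 were at least 2-fold higher in MOV (6.45%) and 3 at least 2-fold lower (3.23%), against 14.8% and 7.30% of 8215 genes, and the median log2 ratio was 0.29 against 0.13. Intervals lay above 0 for 40 genes, below 0 for 10 and held 0 for 43. This split was not taken over all genes, so it is not shown to be particular to the respiratory chain genes. The 3 lowest in MOV included Cox8b (21.2 CPM in sham and 2.40 CPM in MOV, -3.14, -4.67 to -1.78) and Cox6a2 (41.2 and 10.6 CPM, -1.95, -2.72 to -1.18). The third was Ndufb2, an accessory subunit of complex I, at 280 and 159 CPM (-0.82, -1.06 to -0.58). Fibre marker RNA was at 0.178% in the sham and 0.0585% in the MOV cells. For every 1000 fibre marker UMIs there were 12.0 Cox8b UMIs in sham (6.82 to 19.5) and 4.11 in MOV (1.65 to 8.49). For Cox6a2 the values were 23.2 and 18.2. The part of fibre RNA in these differences was not tested. The highest were Sdhaf4, Cox7a2l (210 and 401 CPM, 0.94, 0.69 to 1.18) and Atp5g2, which encodes the c subunit of the ATP synthase (304 and 558 CPM, 0.87, 0.67 to 1.08). The last 2 of these were under 2-fold. Sdhaf4 had 0 UMIs in sham and 29 in MOV. Its log2 ratio was 1.32 with the 0 set to a floor of 3 counts, and its interval began at 0.93, under 2-fold. Besides Sdhaf4, the genes at least 2-fold higher in MOV included, named here after their values were seen, Sdhd (25.2 and 56.3 CPM, 1.16, 0.47 to 1.93), Cox6b2 (1.54, 0.09 to 3.48) and the assembly factors Ndufaf1 (1.75, -0.25 to 4.87) and Ndufaf6 (1.32, -0.37 to 3.68), of which the last 3 had at most 4 UMIs in sham. The third gene at least 2-fold lower was Cox7a1 (15.9 and 4.81 CPM, -1.73, -2.95 to -0.48).

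All 13 mt- genes were lower in the MOV quiescence-like cells, with log2 ratios from -2.09 for mt-Nd3 (-2.21 to -1.97) to -0.44 for mt-Co1 (-0.48 to -0.40) and a joint log2 ratio of -0.80 (-0.82 to -0.78). The mt- share was higher in sham than in MOV in all 8 classes with at least 10 droplets in both libraries, with intervals apart in all 8, for example 4.70% and 2.45% in fibro-adipogenic cells and 7.99% and 4.10% in Schwann cells. With 1 library per group, overload and library preparation cannot be told apart. Immune cells, with 4 sham droplets, and erythroid droplets, named in sham alone, were not compared.

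Fibre-like droplets of the sham library were then divided by their adult myosin heavy chain (MyHC), where at least 60% of at least 10 Myh1, Myh2 and Myh4 UMIs came from 1 gene. Myh4 marks the fast glycolytic 2B fibres, Myh1 the 2X fibres and Myh2 the more oxidative 2A fibres. Of 568 droplets, 220 were Myh4-dominant, 74 Myh1-dominant and 29 Myh2-dominant, while 231 had under 10 UMIs of these genes and 14 had no dominant one. In all, 32 droplets had a leading share between 50% and 70%, near the limit. The nuclear respiratory chain share was 8.65% in Myh4-dominant droplets (8.61 to 8.70%), 14.2% in Myh1-dominant (14.1 to 14.2%) and 17.8% in Myh2-dominant (17.7 to 17.96%). Of the 93 nuclear genes with at least 20 UMIs, 87 followed this order. The share of all genes in this order was not taken, so the order is not shown to be particular to the nuclear genes. For Myh1-dominant over Myh4-dominant droplets the median log2 ratio was 0.68 for the nuclear genes and 0.07 for all genes.

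Between the ends of that order, 47 of 93 nuclear genes were at least 2-fold higher in Myh2-dominant droplets (50.5%) and 0 were at least 2-fold lower, against 13.6% and 13.7% of 4578 genes, with a median log2 ratio of 1.00 against 0.07. Under TMM the count was 23, the median of the nuclear genes 0.73 and the split of all genes 8.26% higher and 19.7% lower, since the median of all genes moved by -0.27. Complex II stood highest, with a median of 1.47 and 3 of 4 subunits at least 2-fold higher, followed by complex IV at 1.22 (11 of 14), complex III at 1.15 (6 of 8), complex V at 1.00 (9 of 17) and complex I at 0.87 (13 of 37). Sdhb was at 516 CPM in Myh4-dominant and 1839 CPM in Myh2-dominant droplets (1.83, 1.68 to 1.98), Uqcrq, a small complex III subunit, at 1382 and 4472 CPM (1.69, 1.60 to 1.79) and Ndufb3, an accessory subunit of complex I, at 410 and 1310 CPM (1.68, 1.50 to 1.85). At the other end were the assembly factor Ndufaf5 (115 and 103 CPM, -0.16, -0.71 to 0.35), Ndufc1 (1566 and 1939 CPM, 0.31, 0.19 to 0.43) and Ndufb4 (1092 and 1397 CPM, 0.35, 0.21 to 0.50), both accessory subunits of complex I.

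The muscle isoforms were higher in Myh2-dominant droplets together with the ubiquitous ones. Cox7a1 was at 734, 1572 and 2270 CPM in Myh4-, Myh1- and Myh2-dominant droplets and Cox7a2 at 1061, 1554 and 1958 CPM, so that the Cox7a1 share of the pair was 40.9%, 50.3% and 53.7%. Cox6a2 kept 99.5% to 99.7% and Cox8b 93.4% to 94.6% of its pair in the 3 groups. The c subunit of the ATP synthase, which is encoded by 3 genes for the same mature protein, showed a shift between its genes: Atp5g1 gave 57.8% of the 3 genes' UMIs in Myh4-dominant, 66.2% in Myh1-dominant and 68.3% in Myh2-dominant droplets, and Atp5g2 29.2%, 18.9% and 16.7%. The mt- share of the summed UMIs was 2.13%, 2.52% and 1.03% in the same order, at median depths of 4933, 6512.5 and 10581 UMIs, and thus did not follow the nuclear genes. As a median over droplets it was 1.64%, 1.37% and 1.09%, so the higher Myh1 value was seen in the summed UMIs only. The lower mt- share in the deepest droplets goes with the depth series above, and the part of depth was not tested.

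**Figure D4:**
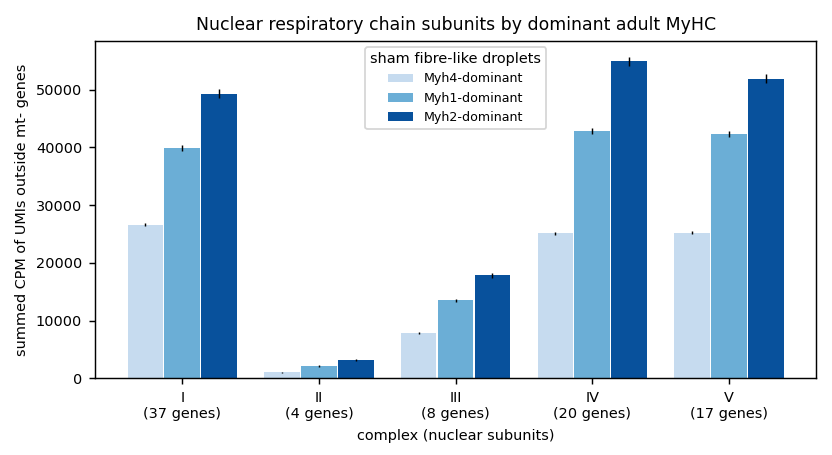
Summed CPM of the nuclear subunits of each complex in sham fibre-like droplets grouped by dominant MyHC (220 Myh4, 74 Myh1 and 29 Myh2 droplets), with exact 95% intervals for counting error. Every complex is lowest in Myh4-dominant and highest in Myh2-dominant droplets, from 25106 to 54924 CPM for complex IV and from 1056 to 3227 CPM for complex II; Cox7a2l is counted with complex IV.

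Within mitochondrial RNA, the share of mt-Co1 separated fibre-like droplets from the other classes named for nucleated cells. The 13 genes lie on chromosome M and are read mainly from one strand, with mt-Nd6 on the other. mt-Co3 (chrM:8607-9390), the third catalytic-core subunit of complex IV, was the most abundant of the 13 in sham quiescence-like cells at 20.6% of mt- UMIs, followed by mt-Atp6 at 16.8%, mt-Co1 at 13.7%, mt-Co2 at 11.9% and mt-Cytb at 11.8%. mt-Nd1 gave 7.07%, mt-Nd4 6.56%, mt-Nd2 6.24%, mt-Nd3 2.45%, mt-Nd5 1.42%, mt-Nd4l 1.06%, mt-Atp8 0.304% and mt-Nd6 0.112%. The annotated ends of mt-Atp8 and mt-Atp6 overlap, as do those of mt-Nd4l and mt-Nd4, and each of these pairs shares one transcript, so a 3′ read is not clearly assigned to the first gene.

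mt-Co1 (chrM:5328-6872), which carries the oxygen-binding site of complex IV, gave 5.35% of mt- UMIs in sham fibre-like droplets (5.19 to 5.51%). In the 7 other sham classes named for nucleated cells it gave 11.7% to 15.3%. In MOV it gave 9.54% in fibre-like droplets (8.01 to 11.3%) and 14.6% to 22.0% in 14 other classes. mt-Co2 and mt-Co3, of the same complex, gave 12.2% and 23.9% in sham fibre-like droplets, close to or above their shares in quiescence-like cells. The value for mt-Co1 was 5.05% in Myh4-dominant, 5.79% in Myh1-dominant and 7.58% in Myh2-dominant droplets. Among the MOV myogenic classes it was highest in matrix-expressing MuSCs, at 22.0%, and, fibre-like droplets apart, lowest in late myocytes, at 14.6%.

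Sham and MOV also differed in the make-up of mt- RNA in each of these 8 classes. mt-Nd3 gave 1.84% to 2.89% in sham and 0.602% to 1.10% in MOV, and mt-Nd2 gave 4.63% to 8.14% in sham and 2.74% to 5.02% in MOV, with sham higher and the intervals apart in 8 of 8 classes for both genes. mt-Co1 was lower in sham in 8 of 8 classes with intervals apart, and mt-Cytb in 8 of 8 with intervals apart in 7. The differences in mt-Nd3 and mt-Nd2 were thus present outside MuSCs in each class compared.

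**Figure D5:**
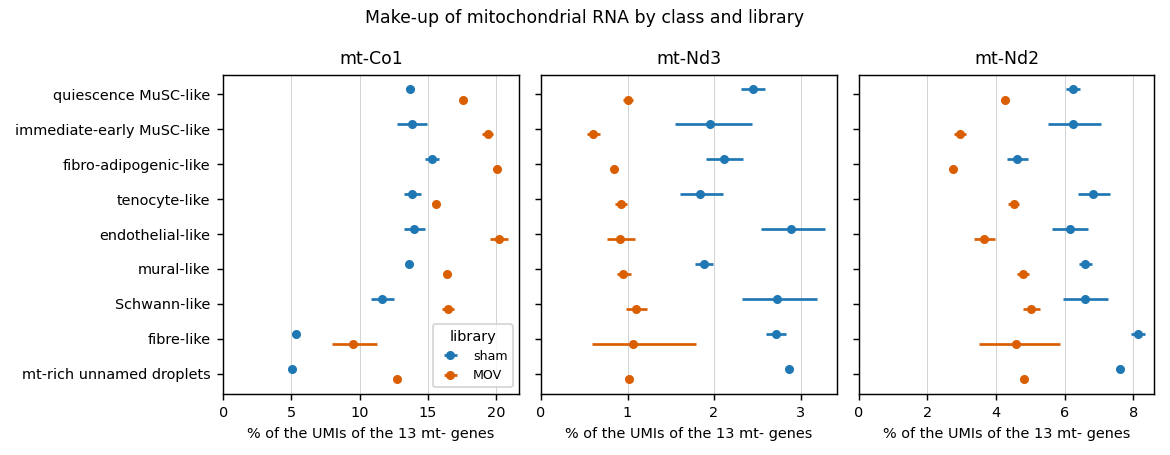
Share of the UMIs of the 13 mt- genes from mt-Co1, mt-Nd3 and mt-Nd2 in the 8 classes with at least 10 droplets in both libraries and in unnamed droplets with at least 50% mt- UMIs, sham in blue and MOV in orange, with exact 95% intervals. The sham fibre-like and mt-rich droplets lie together at 5.35% and 5.02% for mt-Co1, and sham lies to the right of MOV in every row for mt-Nd3.

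Droplets made largely of mitochondrial RNA were common. In sham 228 of 1100 barcodes (20.7%) and in MOV 469 of 3854 (12.2%) had at least 50% mt- UMIs, and they held 76.3% of all sham and 20.9% of all MOV mt- UMIs. In sham 205 barcodes had 95% or more, against 14 in MOV. Only 4 sham and 28 MOV barcodes lay between 45% and 55%. The 221 unnamed sham droplets of this kind had mt-Co1 at 5.02% of their mt- UMIs (4.97 to 5.06%), below the 5.35% of fibre-like droplets and far from the 11.7% to 15.3% of the other classes. Of their few other UMIs, 10.0% came from the fibre markers and 8.52% from the nuclear respiratory chain genes, and the 3 muscle isoforms gave 78.9% of the 6 isoform UMIs. The 413 unnamed MOV droplets differed, with mt-Co1 at 12.8%, fibre markers at 0.619% and a muscle isoform share of 6.71%. In sham erythroid droplets, whose own cells lack mitochondria once mature, mt-Co1 gave 6.15% of the mt- UMIs (5.13 to 7.30%), close to the fibre-like value.

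Among the remaining paralogues, Cox4i2 and Ndufa4l2 had their highest shares outside the myogenic classes. Cox4i2 gave at most 0.663% of the Cox4i UMIs in the MOV myogenic classes and had 0 UMIs in the sham fibre-like droplets, but gave 15.2% in sham and 10.7% in MOV endothelial cells and 10.4% and 14.8% in mural cells. Ndufa4l2, a paralogue of the complex IV subunit Ndufa4, gave 68.5% of the pair in MOV and 12.1% in sham mural cells, 38.6% and 37.7% in sham and MOV endothelial cells, 36 of 72 UMIs in sham and 32.6% in MOV tenocytes and 20.6% and 11.1% in fibro-adipogenic cells, against 0.446% and 0.367% in sham and MOV quiescence-like MuSCs and 0.0114% in sham fibre-like droplets. In sham quiescence-like MuSCs Atp5g1 and Atp5g2 gave like shares of the c subunit UMIs, 36.6% (32.9 to 40.5%) and 36.0% (32.3 to 39.9%). Atp5g2 gave more than Atp5g1 in MOV quiescence-like cells, 49.7% against 30.6%, and in cycling MuSCs, 47.7% against 30.9%, and the 2 were at 38.3% for Atp5g1 and 37.5% for Atp5g2 in late myocytes. Atp5g1 gave 64.1% in sham and 66.9% in MOV fibre-like droplets. Cox4i1 was at 852 CPM in sham and 1132 CPM in MOV quiescence-like cells and 2649 CPM in sham fibre-like droplets, and Cox6b1 at 325, 433 and 1878 CPM.

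Other genes of mitochondrial respiration followed in part. In sham fibre-like droplets against quiescence-like MuSCs, where 29.0% of all genes were at least 2-fold higher and 45.1% at least 2-fold lower, 13 of 16 genes of the TCA cycle were at least 2-fold higher and 0 lower (median 1.93), 55 of 78 mitochondrial ribosomal protein genes were higher and 1 lower (1.58), and 19 of 23 assembly genes of complexes III and IV were higher and 1 lower (2.74). Of 10 measured genes that copy or read mitochondrial DNA, 3 were higher and 4 lower (-0.55). Tfam, which packages and activates mitochondrial DNA, had a log2 ratio of -0.84 and the polymerase Polg -1.52. The elongation factor Tefm had 0 UMIs in the quiescence-like cells and a log2 ratio of 2.58 with this 0 set to the floor of 3 counts. Among regulators of respiration, Esrra had 4.96 (3.09 to 8.01, from 2 UMIs in quiescence-like cells), Perm1 3.12 with 0 UMIs set to the same floor, and Ppargc1a 1.52 (0.22 to 3.19), whereas Nrf1 had -2.24 and Gabpa -2.15, and 4 of 12 were higher and 8 lower. Electron carriers and exchangers had 14 of 15 higher, from the oxygen store Mb (6.47) and the mitochondrial creatine kinase Ckmt2 (6.15) to Cycs, cytochrome c (2.37). The exception was an isoform of the ADP/ATP carrier, Slc25a5 at -3.64, opposite to Slc25a4 at 4.84.

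In cycling MuSCs, where 21.2% of all genes were at least 2-fold higher and 11.6% lower, 47 of 78 mitochondrial ribosomal protein genes were at least 2-fold higher than in MOV quiescence-like cells (median 1.12), 7 of 16 TCA cycle genes (0.76) and 6 of 14 genes that copy or read mitochondrial DNA (0.81), with 0 lower in each list. The same lists had 52 of 78 (1.21), 10 of 16 (1.21) and 7 of 13 (1.05, with 1 lower) in late myocytes, where the shares of all genes were 23.4% higher and 18.1% lower. Ppargc1a, a coactivator of mitochondrial biogenesis, had 1 UMI in the quiescence-like cells and a log2 ratio of 2.71 (0.18 to 8.04) in cycling cells and 3.84 (1.22 to 9.20) in late myocytes, and Ppargc1b, with 4 UMIs, had 2.54 (1.16 to 4.43) and 3.32 (1.89 to 5.23). Between quiescence-like cells of MOV and sham, 0 of 16 TCA cycle genes were at least 2-fold higher and 0 lower, and 19 of 77 mitochondrial ribosomal protein genes were higher and 1 lower, against 14.8% higher and 7.30% lower among all genes. In Myh2-dominant against Myh4-dominant droplets 11 of 15 electron carriers and exchangers were higher and 0 lower (1.33), against 13.6% and 13.7% of all genes, led by Mb at 3.90 and Ckmt2 at 3.06, as were Ppargc1a at 1.99, Perm1 at 1.72 and Esrra at 1.51.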

How the data were processed

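UMI counts per gene and barcode, made by the authors with Cell Ranger (6.0.0, mm10) and deposited as 1 filtered matrix per library, were used as raw counts. The submitters' processing notes also name R 4.0.2 and Seurat 4.0.2. The study's limit of 10% mitochondrial transcripts was not applied. Scrublet scores (scanpy 1.11.5) were used to remove the top 0.8% of barcodes per 1000 cells, which were 10 sham and 119 MOV barcodes. The libraries were integrated by anchors in Seurat 5.3.0 (SCTransform 0.4.2, R 4.3.3) on 3000 variable features and 50 components, with the 111 genes left out, and clustered at resolution 1 and, for myogenic cells, 2. Clusters were named from 17 marker lists, some of which come from the study and support nothing here. After the data were seen, each library's part of a myogenic cluster was named on its own, and a myogenic name was dropped where Pax7, adult MyHC or Pdgfra went against it.

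UMIs were summed per library and class. Nuclear genes are given as CPM of UMIs outside the mt- genes, mt- genes as CPM or percent of all UMIs. Ratios carry exact conditional intervals, levels exact Poisson and shares exact Clopper-Pearson intervals (scipy 1.17.1, numpy 2.4.6, pandas 2.3.3), and a ratio needed 20 UMIs over both groups. A gene was counted as higher or lower at 2-fold. The ratio script was tested on simulated data. Other scalings were tried with the median-of-ratios factors of DESeq2 1.42.0 and with TMM as edgeR 4.0.16 computes it. The genes named are the 13 mt- genes, the isoform and paralogue groups, 8 core subunits, and in each comparison the 3 highest and 3 lowest nuclear genes by the interval bound nearest to no change. The genes and lists were chosen with earlier results of these data known. Gene positions are from GENCODE M21 (GRCm38) and promoters from RefSeq (GRCm38.p6). Per the study's methods several mice were used per group, and the 1 library of each group does not separate them. Many nuclear genes have processed pseudogenes, and shared reads were not examined. The values of 1 gene are not reported here.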

Additional observations from a re-analysis of the deposited data

How the results depend on the processing

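No paired analysis was possible because the labels give only replicate 1 in each group, and with 1 library per group none could be left out. Of 87 alternative counts of nuclear genes at least 2-fold higher, 82 were within 1.5 times the reported count, and the nuclear median lay above that of all genes in 86, the exception being MOV fibre-like droplets at resolution 1. In that shallow group the floor of 3 counts can score undetected genes as higher. The count for cycling MuSCs was 19 instead of 35 with the libraries merged. For early myocytes it was 33 instead of 51 under TMM and 33 under the median of ratios, where 11.2% and 11.3% of all genes were higher. For Myh2-dominant droplets it was 23 and 24 instead of 47, where 8.26% and 8.34% of all genes were higher. Merging gave no value for sham quiescence-like cells, early or late myocytes or MOV fibre-like droplets. The mt- share of sham fibre-like droplets, 2.39%, was 1.39% under a limit of 10% mt- UMIs, 1.67% under 20%, 4.87% as a mean over cells, 18.04% with cells named singly, 22.1% with libraries merged, 2.31% with whole clusters named and 2.21% without droplets under 1000 UMIs. The last 2 alternatives, and leaving out the shallow late myocyte cluster, were chosen after seeing the data. The sham quiescence-like share, 6.00%, was 5.57% under the 10% limit, 6.45% as a mean over cells and 6.11% named singly. The MOV one, 3.45%, was 3.07% and 3.25% under the 10% and 20% limits, 3.70% as a mean, 3.31% named singly and 3.48% merged. The cycling share, 3.10%, was 3.04% under the 10% limit, 3.19% as a mean, 3.24% named singly and 3.23% merged. The muscle isoform share of late myocytes, 5.22%, was 7.03% as a mean and 8.88% named singly. The cause of these shifts was not tested. The other 32 of 53 alternative percentages moved by less than their interval. Depth limits the 37 MOV fibre-like droplets most, at a median of 1534 UMIs.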
